A study of Mus musculus with 44 samples.

Results

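The genes described here build the microtubule transport machinery: kinesins and their light chains, cytoplasmic dynein, its activator dynactin, and the α-, β- and γ-tubulins. They were chosen by symbol alone (symbols starting with Kif, Dync, Dynl or Dctn, or with Tuba, Tubb, Tubg or Klc followed by a digit), and 47 of the 8203 measured genes met that rule. By role they were 6 kinesin-1 genes, 5 kinesin-2 genes, 3 kinesin-3 genes, 5 other kinesin genes, 7 dynein heavy, intermediate and light intermediate chains, 4 dynein light chains, 6 dynactin subunits, 3 α-tubulins, 6 β-tubulins and 2 γ-tubulins.

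Ribosome-bound mRNA was captured by translating ribosome affinity purification (TRAP) from Crh neurons of the central amygdala (CeA), which make corticotropin-releasing hormone, in 44 mice. Every mouse, controls included, was a first-generation Crh-TRAP animal of 10 to 16 weeks, carrying the Cre transgene of the B6;FVB-Tg(Crh-cre)1Kres/J line and 1 copy of the Rosa26 fs-TRAP reporter allele, in which Cre switches on the tagged ribosomal protein eGFP-L10a under the CAG promoter. The Cre is thus a transgene and not the native Crh gene, and a cell is tagged wherever that transgene has been active. The tone-alone group (TA, 16 mice, 10 of them male) heard 5 tones with no shock, the fear-conditioned group (FC, 12 mice, 6 male) received 5 tone-shock pairings at 0.65 mA, and the extinction group (EXT, 16 mice, 10 male) was conditioned in the same way and heard 30 tones without shock in a new context on the next day. All mice were killed 2 h after their last session, so EXT mice were also sampled a day later than the others. Each library came from the bilateral 1 mm amygdala punches of 1 animal, and a punch of that size can hold neighbouring regions.

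Microtubules are hollow polymers of α- and β-tubulin that are nucleated by γ-tubulin. Along axons most kinesins walk towards the distal plus end, carrying vesicle precursors, mitochondria and RNA granules, while dynein with dynactin returns cargo to the cell body. Neurons make several α- and β-tubulin isotypes whose acidic tails, which face outward from the microtubule, are where motors and modifying enzymes act.

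Libraries held 12802113 to 20440351 reads, with a median of 18015590 in TA, 16977973 in FC and 15412341 in EXT mice, and the members were well counted (79 reads in the lowest member value of any library). All 8 mitochondrial transcripts in the table together took 24943 to 42617 cpm (reads scaled to a common library size) in 6 EXT libraries, but at most 9756 cpm in the other 38. These 6 libraries (EXT mouse 21 from batch 2, mice 22, 25, 44 and 53 from batch 3 and mouse 55 from batch 4) also held more of the nuclear RNA Malat1 (1063 to 3019 cpm against at most 537 cpm) and less Crh (9 to 24 cpm, against 28 to 144 cpm in TA and 16 to 79 cpm in the other 10 EXT libraries). The summed level of the 11 measured of 12 listed CeA and Crh neuron markers was 1838 to 3243 cpm in the 6 libraries, 3676 to 7554 cpm in TA and 3649 to 9519 cpm in the other EXT libraries, and Slc32a1, the vesicular GABA transporter, was not in the table. Oligodendrocyte markers (9 of 10 measured) summed to 2830 to 13609 cpm in the 6 libraries and 1447 to 6539 cpm in TA. They summed to 1898 to 5279 cpm in the other EXT libraries and 1721 to 18789 cpm in FC, highest in FC mouse 13. All 8 astrocyte markers summed to 1867 to 2355 cpm in the 6 libraries and 633 to 2602 cpm in TA. Their sums were 933 to 3144 cpm in the other EXT libraries and 897 to 2243 cpm in FC. Choroid plexus markers (4 of 7 measured) ranged from 186 to 51048 cpm over EXT mice and from 187 to 27465 cpm over TA mice. No endothelial or ciliated ependymal marker, 1 of 7 microglial markers and 3 of 7 glutamatergic markers were in the table, with Slc17a6, Neurod2 and Tbr1 among the absent ones. The 3 groups were spread over batches 1, 2 and 5, with 4, 5 and 7 TA mice, 5, 2 and 5 FC mice and 2, 3 and 5 EXT mice. Batches 3 (5 mice) and 4 (1 mouse) held EXT mice alone, so within those batches group and batch cannot be told apart.

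In TA mice the most abundant member transcripts per kilobase were Dynlrb1, a small dynein light chain of the roadblock type, at 883 ± 220 cpm per kb (SD, n = 16) and the α-tubulin Tuba1a at 830 ± 109 cpm per kb. The β-tubulin Tubb2a followed at 734 ± 125 cpm per kb, and these 3 did not separate beyond their spread. The LC8 light chain Dynll1 had 616 ± 225 cpm per kb and the small dynactin subunit Dctn3 451 ± 107 cpm per kb. The most abundant kinesin gene was the light chain Klc1, at 395 ± 131 cpm per kb, which overlapped Tuba1b at 404 ± 31.7 cpm per kb. Among kinesin motor chains the kinesin-14 gene Kifc2 (118 ± 23.5 cpm per kb), the neuronal heavy chain Kif5a (88.6 ± 20.2 cpm per kb) and the kinesin-2 motor Kif3a (71.5 ± 23.8 cpm per kb) led. At the low end stood the cytoplasmic dynein heavy chain Dync1h1 (1.27 ± 0.56 cpm per kb), Kif21b (1.14 ± 0.26 cpm per kb) and the ciliary dynein heavy chain Dync2h1 (0.76 ± 0.19 cpm per kb). The transcripts of both heavy chains were the longest of the members, at 14342 and 14264 bases. Whether transcript length itself moved these levels was not tested.

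**Figure D1:**
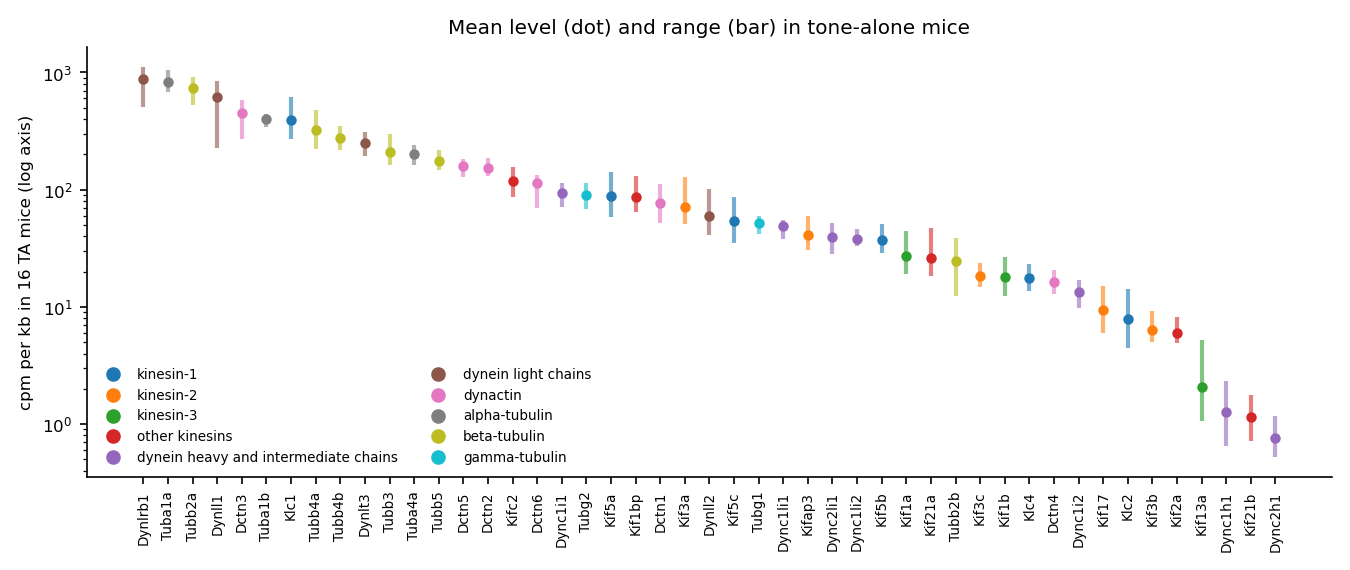
Level of each of the 47 genes in TA mice, in cpm per kilobase of transcript on a log axis, coloured by role. Dots mark the mean over 16 mice and bars the range from the lowest to the highest mouse; small light chains and tubulins stand at the top and the dynein heavy chains, at 1.27 and 0.76 cpm per kb, at the bottom.

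To ask which members changed after extinction, EXT and TA mice were compared on the log2 cpm scale by limma, with sex and the batch number as covariates. All 6 β-tubulins, 2 of 3 α-tubulins, 4 of 5 kinesin-2 genes and 3 of 6 dynactin subunits were FDR-significantly lower in EXT mice, while the 3 kinesin-1 heavy chains and Kifc2 were higher. In all, 19 of the 47 members were lower and 4 were higher at an adjusted p under 0.05, against 11% lower and 10.4% higher among the 8203 genes tested. The median log2 difference was -0.14 over the members and 0.005 over all genes. These calls were lost under several other fits. With the batch number kept, no member was FDR-significant with log2 library size as a further covariate. The same held without batches 3 and 4 and without the 6 libraries high in mitochondrial transcripts. With the 5 batches as categories no member was FDR-significant (limma, 18 lower and 2 higher at an unadjusted p under 0.05), and of all genes 0.0244% were lower by FDR, 11% lower and 10.2% higher by unadjusted p. In EXT and TA mice of the shared batches alone, with batches as categories, 8 members were FDR-significantly lower, against 2.84% of all genes. Without the 6 libraries high in mitochondrial transcripts and with batches as categories, 1 member, Tubb3, was lower, against 1% of all genes. From bulk TRAP libraries, fewer tagged cells of a kind and less RNA per cell cannot be told apart.

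Although the calls were lost, the sign of the lower members was not. All 19 were negative in every one of the 13 alternatives that tested them (18 of them were tested in the alternative that kept genes with a mean log2 cpm of at least 5). Their median log2 difference was -0.50 with the batch number, -0.30 with batches as categories and -0.23 without the 6 libraries and with batches as categories. In batches 1, 2 and 5, EXT means rested on only 2, 3 and 5 mice and TA means on 4, 5 and 7. The EXT mean was below the TA mean in each of these batches for all 19, and for 26 of the 47 members, against 19.3% of all genes. Without EXT mouse 21, the only one of the 6 libraries in these batches, this held for 18 of the 19, since Tubb4b turned from -0.18 to 0.25 in batch 2, and for 27 of the 47 members, against 20.2% of all genes. The 19 were chosen for being lower in the fit with the batch number, on data that include these batches. The alternatives refit the same EXT and TA mice or part of them. Their shared sign, in the alternatives and in these batches, is thus not independent of the calls. The shares of all genes are for genes not chosen in this way, and sign keeping among all genes called lower was not counted. The 4 higher members did not keep theirs: 3 of 4 were positive without the 6 libraries and with batches as categories, all within 0.02 of 0, and Kif5a was at -0.05.

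**Figure D2:**
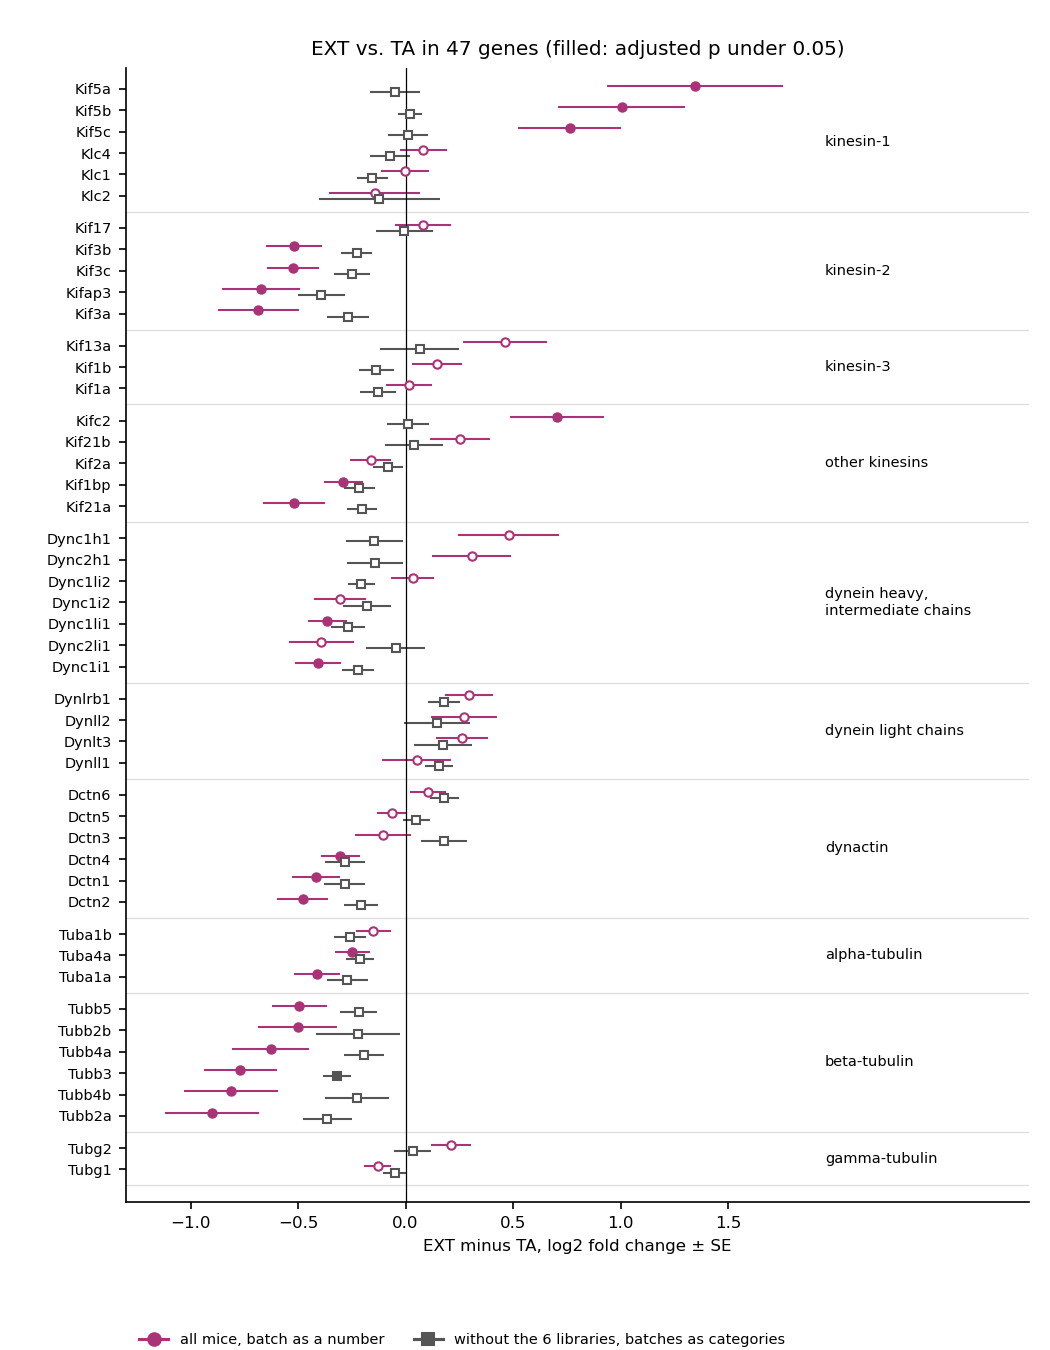
EXT minus TA difference on the log2 scale (± SE) for each of the 47 members, from all 32 mice with batch as a number (magenta circles) and from the 26 mice left without the 6 libraries high in mitochondrial transcripts, with batches as categories (grey squares). Filled marks have an adjusted p under 0.05; kinesin-1 heavy chains stand far to the right in the first set and near 0 in the second, while the α- and β-tubulins and Kif3a, Kif3b, Kif3c and Kifap3 are left of 0 in both.

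The β-tubulin Tubb3, the isotype used as a marker of neurons, was the only member to pass without the 6 libraries and with batches as categories. Its lowest, median and highest log2 cpm were 8.25, 8.52 and 9.12 in TA, 7.84, 8.58 and 8.97 in FC and 6.74, 8.09 and 8.62 in EXT mice. The 6 EXT libraries high in mitochondrial transcripts lay at 6.74 to 7.51, below every other library, and the other 10 EXT libraries at 7.93 to 8.62, within reach of TA. The EXT minus TA difference was -0.77 ± 0.17 (SE, adjusted p = 0.013), a fold of 0.587, and within batches 1, 2 and 5 it was -0.48, -0.76 and -0.15. With batches as categories it was -0.42 ± 0.14 (adjusted p = 0.145), and without the 6 libraries and with batches as categories -0.32 ± 0.07 (adjusted p = 0.047).

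Tubb2a, the most abundant β-tubulin here, had the largest β-tubulin difference, at -0.90 ± 0.22 (adjusted p = 0.013, a fold of 0.535). Its lowest, median and highest log2 cpm were 9.73, 10.24 and 10.51 in TA, 8.83, 10.32 and 11.02 in FC and 7.74, 9.42 and 10.50 in EXT mice. The 6 libraries spanned 7.74 to 8.99 and overlapped FC mouse 47 (8.83), the lowest FC library. Within batches 1, 2 and 5 the difference was -0.36, -0.91 and -0.24, and without the 6 libraries and with batches as categories it was -0.36 ± 0.12 (adjusted p = 0.0708). The other β-tubulins differed by -0.81 (Tubb4b, adjusted p = 0.0162), -0.63 (Tubb4a, adjusted p = 0.018), -0.50 (Tubb2b, adjusted p = 0.0489) and -0.49 (Tubb5, adjusted p = 0.0139). Without the 6 libraries and with batches as categories these 4 lay between -0.23 and -0.19 and none passed.

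To show how far the isotypes differ in the stretch that encodes their acidic tail, the last 60 coding bases of each are printed (GRCm38, stop codon included). Capitals mark bases that differ from Tubb2a after alignment. Tubb2a and Tubb2b lie at chr13:34074468-34074527 and chr13:34127471-34127530, both on the minus strand. Tubb3 lies at chr8:123421623-123421682 on the plus strand, and Tubb4a, Tubb4b and Tubb5 at chr17:57080690-57080749, chr2:25222308-25222367 and chr17:35834982-35835041 on the minus strand.
Tubb2a: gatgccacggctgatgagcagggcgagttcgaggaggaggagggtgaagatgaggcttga
Tubb2b: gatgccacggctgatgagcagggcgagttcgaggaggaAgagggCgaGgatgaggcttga
Tubb3: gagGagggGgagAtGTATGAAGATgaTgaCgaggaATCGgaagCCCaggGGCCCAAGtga
Tubb4a: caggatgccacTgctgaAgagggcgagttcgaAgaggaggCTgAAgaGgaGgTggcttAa
Tubb4b: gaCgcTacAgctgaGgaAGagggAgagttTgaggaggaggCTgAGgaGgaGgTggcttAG
Tubb5: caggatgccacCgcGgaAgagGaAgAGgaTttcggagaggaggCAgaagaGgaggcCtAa
Of the 60 bases, 3 differed from Tubb2a in Tubb2b, 11 in Tubb4a, 13 in Tubb5, 17 in Tubb4b and 30 in Tubb3. Over the aligned coding sequence Tubb2a and Tubb2b were 96.5% identical, while every other β-tubulin pair was 82.3% to 84.8% identical. Of the 50-base windows of the Tubb3 transcript 0% were found in another gene's transcript, against 49.6% for Tubb2a, 39.3% for Tubb2b and 55.5% for Tubb4b, so the values of those 3 are uncertain where reads could be split between copies. In all 12 members shared over 10% of their windows, among them Kif2a, Kif1bp, Klc2, Tubg1 and Tubg2 (12.5% to 23.0%), and their values are uncertain in the same way.

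The α-tubulin Tuba1a, the main isotype of neurons, was lower in EXT mice by a smaller amount. Its lowest, median and highest log2 cpm were 10.26, 10.54 and 10.89 in TA, 9.93, 10.61 and 10.79 in FC and 9.46, 10.00 and 10.86 in EXT mice, and the ranges overlapped. The EXT minus TA difference was -0.41 ± 0.11 (adjusted p = 0.0149), with -0.25, -0.54 and -0.20 within batches 1, 2 and 5. It was -0.27 ± 0.09 (adjusted p = 0.0918) without the 6 libraries and with batches as categories. Tuba4a differed by -0.25 ± 0.08 (adjusted p = 0.0317), and Tuba1b, at -0.15 ± 0.08 (adjusted p = 0.179), was the member that passed only once batches were categories and the EXT-only batches were left out (-0.25 ± 0.07, adjusted p = 0.046). Tuba1a and Tuba1b coding sequences were 98.3% identical and shared 75.5% and 83.1% of their transcript windows with other genes, and Tuba4a overlaps Stk16 on the opposite strand, which this library type does not separate, so all 3 values are uncertain. Of the γ-tubulins, which nucleate microtubules, neither passed: Tubg2 was at 0.21 ± 0.09 (adjusted p = 0.0943) and Tubg1 at -0.13 ± 0.06 (adjusted p = 0.123). Tubg2 had a lowest, median and highest log2 cpm of 6.91, 7.30 and 7.64 in TA and 7.05, 7.47 and 7.90 in EXT mice.

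**Figure D3:**
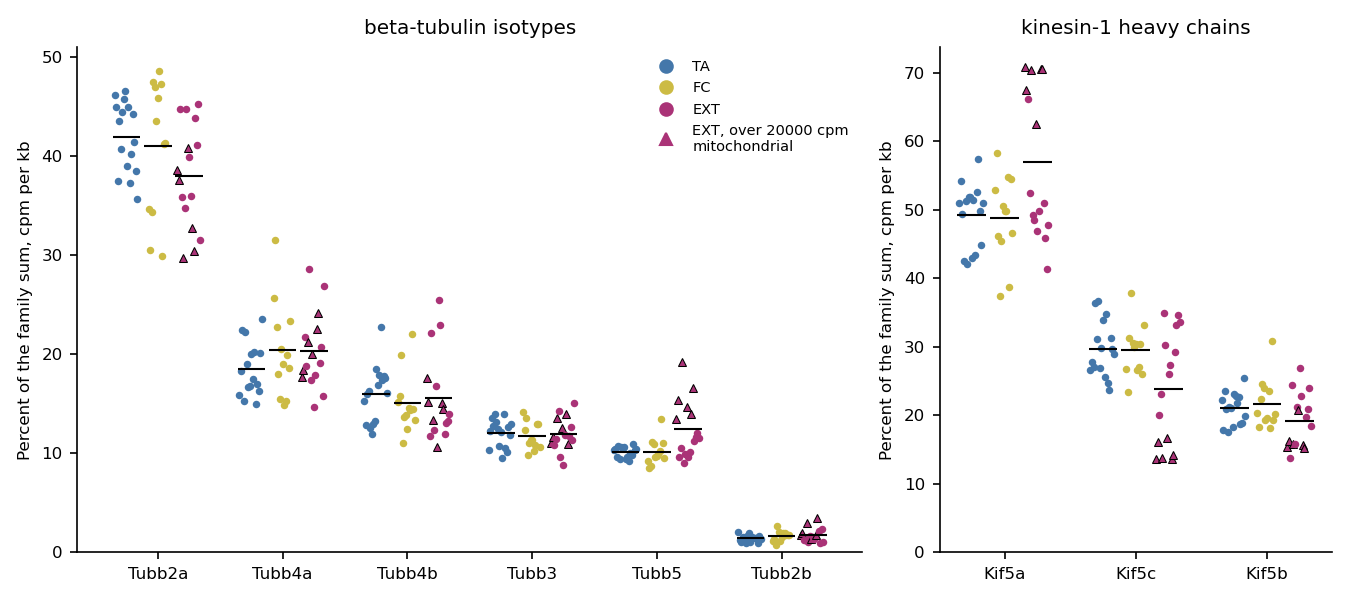
Share of each β-tubulin isotype in the summed β-tubulin level, and of each kinesin-1 heavy chain in the summed heavy chain level, per kilobase and in percent, with a point for each mouse and a bar at the group mean. Tubb5 (13.4% to 19.2%) and Kif5a (62.5% to 70.9%) take larger shares in the 6 libraries high in mitochondrial transcripts than Tubb5 (9.20% to 10.9%) and Kif5a (42.1% to 57.5%) do in TA mice.

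The mix of isotypes, per kilobase, was described without a test. In TA mice Tubb2a made up 41.9% ± 3.57 (SD, n = 16) of the β-tubulin level, Tubb4a 18.5% ± 2.66, Tubb4b 16.0% ± 2.82, Tubb3 12.1% ± 1.40, Tubb5 10.1% ± 0.53 and Tubb2b 1.41% ± 0.34. Tubb5, the most widely expressed isotype, was 13.4% to 19.2% in the 6 libraries and 9.05% to 12.1% in the other 10 EXT libraries, beside 9.20% to 10.9% in TA, while the share of Tubb3 was 12.3% ± 1.30 (n = 6), 11.8% ± 1.90 (n = 10) and 12.1% ± 1.40. Thus the isotypes were lower in the 6 libraries by unequal amounts, and the other EXT libraries kept close to the TA mix. Among α-tubulins Tuba1a held 57.6% ± 2.71 in TA and 45.5% to 49.6% in the 6 libraries, and Tuba1b 28.2% ± 1.4 and 35.5% to 39.8%. Summed β-tubulin was 3256 ± 399 cpm in TA (n = 16), 887 to 1491 cpm in the 6 libraries and 2048 to 3736 cpm in the other EXT libraries.

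Kinesin-2 carries cargo in axons and cilia as a trimer of Kif3a with Kif3b or Kif3c and the adaptor Kifap3. With the batch number these 4 genes were all FDR-significantly lower in EXT mice, against 11% of all genes. With batches as categories none of them passed. Kif3c, the neuronal partner, had a lowest, median and highest log2 cpm of 6.64, 6.95 and 7.33 in TA, 5.63, 6.88 and 7.30 in FC and 5.39, 6.47 and 7.03 in EXT mice. Its EXT minus TA difference was -0.52 ± 0.12 (adjusted p = 0.013), with -0.29, -0.71 and -0.05 within batches 1, 2 and 5. Without the 6 libraries and with batches as categories it was -0.25 ± 0.08 (adjusted p = 0.0797). Exons of Kif3c overlap 1110002L01Rik and Gm48512 on the opposite strand over 43.4% of its windows, so part of its reads could belong to them.

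Kif3a, the shared motor subunit, had a lowest, median and highest log2 cpm of 7.32, 7.64 and 8.65 in TA, 6.85, 7.66 and 8.51 in FC and 5.95, 7.12 and 8.10 in EXT mice. The 6 libraries lay at 5.95 to 6.76, below all 38 others. The difference was -0.68 ± 0.19 (adjusted p = 0.0166), and -0.27 ± 0.10 (adjusted p = 0.105) without those libraries and with batches as categories. Kifap3 was at -0.67 ± 0.18 (adjusted p = 0.0163) and -0.39 ± 0.11 (adjusted p = 0.0588) in the same fits, and Kif3b at -0.52 ± 0.13 (adjusted p = 0.013) and -0.23 ± 0.07 (adjusted p = 0.0733). The fifth kinesin-2 gene, Kif17, a dendritic motor that works as a homodimer without Kifap3, was at 0.08 ± 0.13 (adjusted p = 0.667). Summed Kif3a, Kif3b and Kif3c was 387 ± 98.3 cpm in TA and 125 to 198 cpm in the 6 libraries.

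The kinesin-1 heavy chains moved the other way, chiefly in the 6 libraries. Kif5a, the heavy chain found mainly in neurons, had a lowest, median and highest log2 cpm of 8.53, 9.08 and 9.79 in TA, 8.64, 9.15 and 9.75 in FC and 8.45, 9.75 and 13.06 in EXT mice. The 6 libraries spanned 11.76 to 13.06, above every other library, and the next was EXT mouse 23 of batch 3 at 11.06, with a mitochondrial sum of 6533 cpm. FC mice 18 and 19 had higher mitochondrial sums, 9756 and 8874 cpm, with Kif5a at 9.54 and 9.75. The EXT minus TA difference was 1.35 ± 0.41 (adjusted p = 0.0218, a fold of 2.54). It was 0.37, 0.98 and -0.22 within batches 1, 2 and 5 (-0.12 in batch 2 without EXT mouse 21), and -0.05 ± 0.12 (adjusted p = 0.846) without the 6 libraries and with batches as categories.

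**Figure D4:**
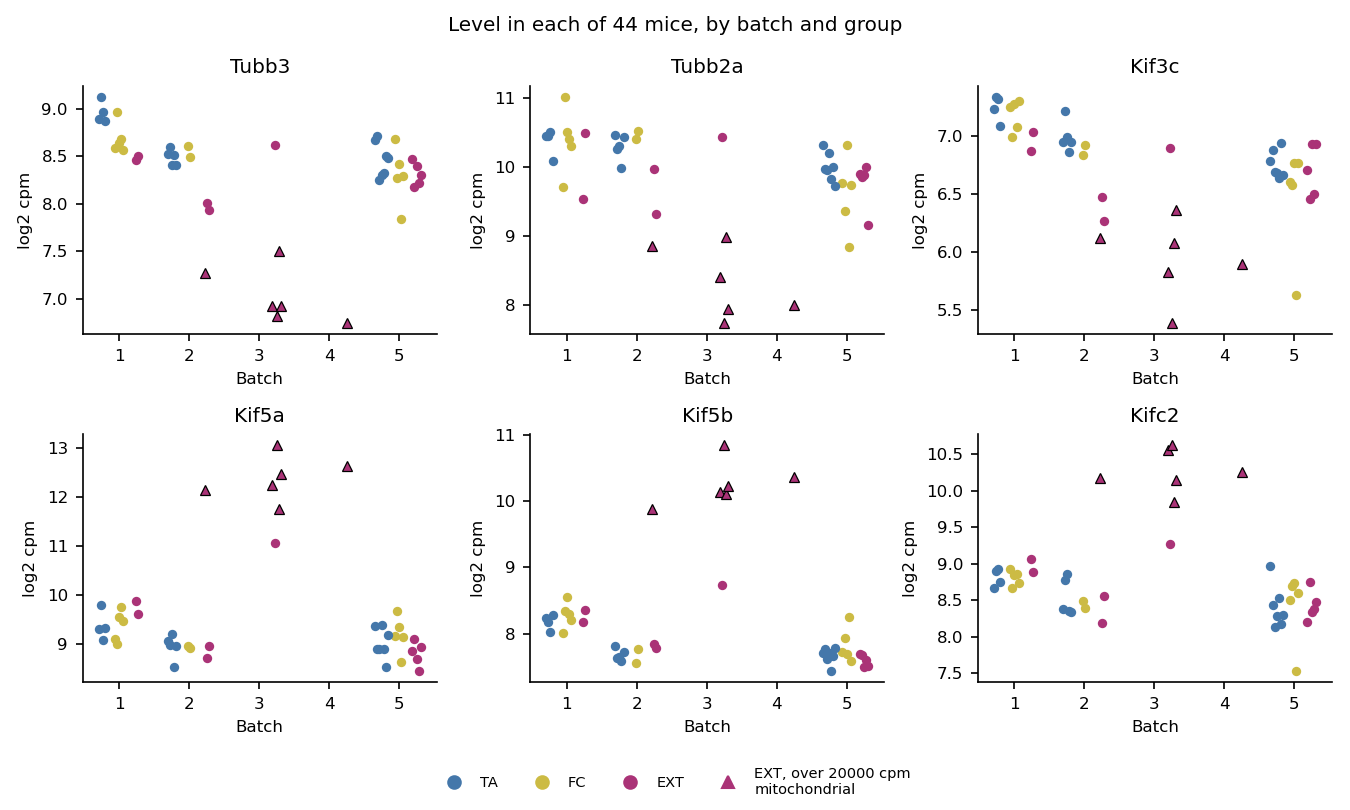
Log2 cpm of Tubb3, Tubb2a, Kif3c, Kif5a, Kif5b and Kifc2 in each of the 44 mice, by batch and coloured by group, with triangles for the 6 EXT libraries high in mitochondrial transcripts. The triangles are lowest for Tubb3 (6.74 to 7.51) and highest for Kif5a (11.76 to 13.06), and nearly all of them stand in the EXT-only batches 3 and 4.

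Kif5b, the ubiquitous heavy chain, had a lowest, median and highest log2 cpm of 7.43, 7.72 and 8.28 in TA, 7.55, 7.97 and 8.56 in FC and 7.50, 8.27 and 10.84 in EXT mice, with 9.87 to 10.84 in the 6 libraries. Its difference was 1.01 ± 0.30 (adjusted p = 0.0193, a fold of 2.01), and 0.02 ± 0.06 (adjusted p = 0.867) without them and with batches as categories. Kif5c, also enriched in neurons, was at 0.76 ± 0.24 (adjusted p = 0.0261) and 0.01 ± 0.09 (adjusted p = 0.952) in the same fits. The light chains that couple these motors to cargo did not pass in either direction: Klc1 was at 0.00 ± 0.11 (adjusted p = 0.982), Klc2 at -0.14 ± 0.21 (adjusted p = 0.643) and Klc4 at 0.08 ± 0.11 (adjusted p = 0.587). Klc1 had a lowest, median and highest log2 cpm of 9.40, 9.74 and 10.60 in TA and 9.19, 9.94 and 10.68 in EXT mice. The summed heavy chains were 1155 ± 262 cpm in TA (n = 16) and 5574 to 12150 cpm in the 6 libraries, with Kif5a at 49.3% ± 4.64 of them per kilobase in TA and 62.5% to 70.9% in the 6 libraries, and Kif5c at 29.7% ± 4.05 and 13.6% to 16.8%.

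**Figure D5:**
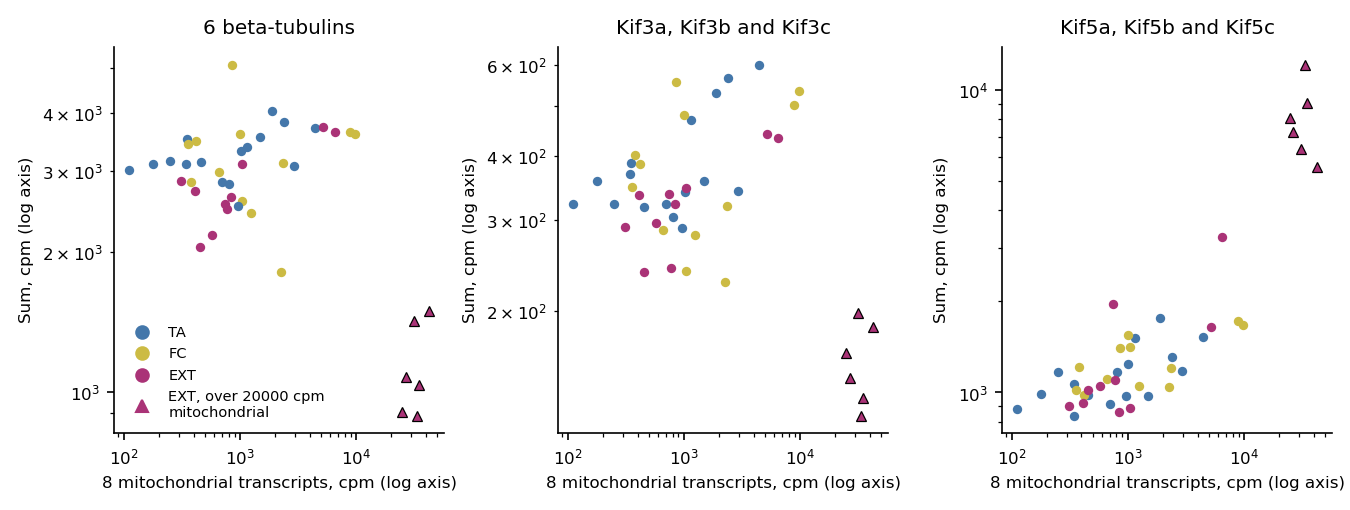
Summed cpm of the 6 β-tubulins, of Kif3a to Kif3c and of Kif5a to Kif5c in each mouse against the summed cpm of 8 mitochondrial transcripts, both on log axes, coloured by group. The 6 EXT libraries at 24943 to 42617 mitochondrial cpm hold 887 to 1491 cpm of β-tubulin and 5574 to 12150 cpm of kinesin-1 heavy chains, apart from the other 38 libraries.

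Kifc2, a motor with its head at the C-terminal end, was the only other member that was higher by FDR with the batch number. Its lowest, median and highest log2 cpm were 8.13, 8.48 and 8.97 in TA, 7.53, 8.68 and 8.93 in FC and 8.19, 8.97 and 10.62 in EXT mice, with the 6 libraries at 9.85 to 10.62. The difference was 0.70 ± 0.22 (adjusted p = 0.0243), and 0.01 ± 0.10 (adjusted p = 0.956) without the 6 libraries and with batches as categories. Over the whole set, 4 members (8.51%) lay above all 38 other libraries in every one of the 6, against 4.77% of all genes, and these were Kif5a, Kif5b, Kif5c and Kifc2. A further 6 members (12.8%) lay below all 38, against 3.25% of all genes, and these were Tubb3, Tubb4a, Tubb4b, Kif3a, Kif21a and Dctn2. With log2 library size as a covariate the EXT minus TA difference was 0.92 ± 0.55 for Kif5a and -0.57 ± 0.23 for Tubb3 (adjusted p = 0.700 for each). The part that mitochondrial and nuclear RNA and marker levels played in these values was not tested.

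The kinesin-4 motor Kif21a had a lowest, median and highest log2 cpm of 6.81, 7.06 and 8.19 in TA and 5.78, 6.70 and 7.68 in EXT mice. It differed by -0.52 ± 0.14 (adjusted p = 0.0169), and by -0.20 ± 0.07 (adjusted p = 0.0918) without the 6 libraries and with batches as categories. Kif1bp, which binds kinesins and is not a motor, was lower, at -0.29 ± 0.09 (adjusted p = 0.0281). None of the kinesin-3 genes passed. Kif13a, the weakest-expressed of them, had a lowest, median and highest log2 cpm of 2.86, 3.69 and 5.16 in TA and 2.98, 4.11 and 5.17 in EXT mice, with a difference of 0.46 ± 0.19 (adjusted p = 0.08). Kif1a, which carries synaptic vesicle precursors, was at 0.01 ± 0.11 (adjusted p = 0.933), with 7.28, 7.61 and 8.51 in TA and 7.15, 7.71 and 8.57 in EXT mice.

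Within the dynein motor, 2 of 7 heavy, intermediate and light intermediate chains were FDR-significantly lower, against 11% of all genes. Dync1li1, a light intermediate chain, had a lowest, median and highest log2 cpm of 6.63, 6.995 and 7.18 in TA, 6.24, 6.90 and 7.28 in FC and 6.09, 6.64 and 7.25 in EXT mice. The EXT minus TA difference was -0.36 ± 0.09 (adjusted p = 0.0136), with -0.35, -0.64 and -0.10 within batches 1, 2 and 5, and -0.27 ± 0.08 (adjusted p = 0.0621) without the 6 libraries and with batches as categories. Dync1i1, the intermediate chain of neurons, had 7.53, 7.92 and 8.22 in TA, 7.11, 7.81 and 8.03 in FC and 6.68, 7.58 and 8.30 in EXT mice. It differed by -0.41 ± 0.11 (adjusted p = 0.0151), and by -0.22 ± 0.08 (adjusted p = 0.0874) in the second fit. Their paralogs did not pass: Dync1li2 was at 0.03 ± 0.10 (adjusted p = 0.826), and at -0.20 ± 0.06 (adjusted p = 0.0697) in the second fit, and Dync1i2 at -0.31 ± 0.12 (adjusted p = 0.0624). The motor-bearing heavy chain Dync1h1 was at 0.48 ± 0.24 (adjusted p = 0.132) with the batch number and at -0.14 ± 0.13 (adjusted p = 0.537) in the second fit.

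The 4 dynein light chains had positive differences in both fits, although none passed FDR in either. Dynlrb1 was at 0.30 ± 0.11 (adjusted p = 0.0542) with the batch number and at 0.18 ± 0.07 (adjusted p = 0.141) without the 6 libraries and with batches as categories, and within batches 1, 2 and 5 at 0.35, 0.27 and 0.10. It passed under 3 alternatives: all 3 groups fitted together (adjusted p = 0.0482), a mean log2 cpm of at least 5 (adjusted p = 0.0453) and quantile normalization (adjusted p = 0.0481). Its lowest, median and highest log2 cpm were 8.43, 9.36 and 9.59 in TA, 8.35, 9.44 and 9.83 in FC and 8.58, 9.64 and 9.96 in EXT mice. Dynlt3, Dynll2 and Dynll1 were at 0.26, 0.27 and 0.05 with the batch number and at 0.17, 0.15 and 0.16 in the second fit.

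Dynactin, which ties dynein to cargo and makes it processive, had 3 of 6 subunits FDR-significantly lower with the batch number, against 11% of all genes. None passed with batches as categories. Dctn2 (dynamitin, of the shoulder) had a lowest, median and highest log2 cpm of 7.87, 8.07 and 8.37 in TA, 7.54, 7.93 and 8.31 in FC and 6.75, 7.60 and 8.14 in EXT mice, and differed by -0.48 ± 0.12 (adjusted p = 0.013). Without the 6 libraries and with batches as categories it was at -0.21 ± 0.08 (adjusted p = 0.118). Dctn1, the largest subunit, which contacts microtubules, was at -0.42 ± 0.11 (adjusted p = 0.0165) and -0.28 ± 0.10 (adjusted p = 0.084) in the same fits, and Dctn4, of the pointed end, at -0.30 ± 0.09 (adjusted p = 0.021) and -0.28 ± 0.09 (adjusted p = 0.0787). Dctn3, a small shoulder subunit, was at -0.11 ± 0.13 (adjusted p = 0.569) and 0.18 ± 0.11 (adjusted p = 0.312), and had 8.03, 8.91 and 9.14 in TA and 7.69, 8.74 and 9.34 in EXT mice. Dctn2 and Kif5a are neighbours on chromosome 10, divergently transcribed with 3019 bases between them, and had differences of opposite sign (-0.48 and 1.35).

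Much of the members' spread lay between batches. In TA mice alone, a median of 53.1% of a member's variance lay between batches, against 46.4% over all genes. Over all mice a median of 14.9% lay between groups, against 7.93% over all genes. That group share was taken with no batch term and with the EXT-only batches 3 and 4 included, so it also holds batch differences. For Dynll1 the share between batches was 96.3%, with TA means of 9.00 ± 0.14 in batch 1 (SD, n = 4), 10.57 ± 0.16 in batch 2 (n = 5) and 10.52 ± 0.13 in batch 5 (n = 7). Dynlrb1 (8.52, 9.38 and 9.43) and Dctn3 (8.12, 8.88 and 8.98) were likewise low in batch 1, while Klc1 (10.57, 9.74 and 9.60) and Kif21a (7.94, 7.03 and 7.002) were high there. Batch 1 thus stood apart in both directions, by gene. What sets batch 1 apart was not tested.

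After fear conditioning no member was FDR-significant against TA (limma, 4 lower and 0 higher at an unadjusted p under 0.05), and neither was any gene (6.18% of all genes were lower and 4.22% higher by unadjusted p). The lowest p belonged to Dctn4, which had 5.59, 5.91 and 6.28 as lowest, median and highest log2 cpm in TA and 5.33, 5.68 and 6.16 in FC mice. It differed by -0.25 ± 0.08 (p = 0.00645, adjusted p = 0.356). The other 3 were Dctn1 (-0.28 ± 0.10), Dync1i1 (-0.23 ± 0.10) and Dctn2 (-0.17 ± 0.08), each with an adjusted p of at least 0.373. On the positive side the lowest p was that of Kif5b, at 0.15 ± 0.09 (p = 0.0964, adjusted p = 0.574). Tubb3 was at -0.14 ± 0.07 (adjusted p = 0.525). These leading members depended on the batch coding. With batches as categories the lowest p was that of Dctn1, at -0.32 ± 0.09 (limma, p = 0.0013, adjusted p = 0.1135). On the positive side it was then that of Dynlrb1, at 0.17 ± 0.06 (p = 0.0101, adjusted p = 0.179). No member passed FDR in that fit either. FC and EXT mice were compared with the same TA mice, so values of a gene in both comparisons are not independent.

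Between EXT and FC mice no member passed FDR (limma, 15 lower and 5 higher at an unadjusted p under 0.05), beside 8.35% of all genes lower and 11% higher by unadjusted p. These groups differ by the extinction session and the added day. They also differ in batch, since batches 3 and 4 held EXT mice alone, and all 6 libraries high in mitochondrial transcripts were EXT libraries. The part of each was not tested. Kif21a differed by -0.59 ± 0.18 (p = 0.00253, adjusted p = 0.219), and its lowest, median and highest log2 cpm were 6.75, 7.19 and 8.49 in FC mice. Kifc2 differed by 0.71 ± 0.26 (p = 0.00989, adjusted p = 0.219). With batches as categories these values were -0.24 ± 0.14 and 0.17 ± 0.20, and no member had an unadjusted p under 0.05.

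Whether EXT minus TA differed between the sexes, as labelled, was tested by an interaction term. No member had an adjusted or an unadjusted p under 0.05 (limma), beside 2.23% of all genes lower and 1.9% higher in females by unadjusted p. The lowest p was that of Kif2a, a kinesin-13 that shortens microtubules at their ends, with EXT minus TA at -0.04 ± 0.12 in males and -0.37 ± 0.15 in females and a difference between them of -0.33 ± 0.19 (p = 0.0922, adjusted p = 0.998). Kif21b was at 0.14 ± 0.18 in males and 0.45 ± 0.23 in females, a difference of 0.31 ± 0.29 (p = 0.291, adjusted p = 0.998).

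Lists of genes that act with the motors were counted in the same fit, in which 10.4% of all genes were higher and 11% lower. Of 30 measured of 39 listed motor adaptors and regulators, 3 were FDR-significantly higher in EXT than in TA mice (Trak2, which links motors to mitochondria, at 0.90, Plekhm2, a kinesin-1 adaptor of lysosomes, at 0.73, and the mitochondrial GTPase Rhot2 at 0.41) and 2 lower (Hap1, which binds huntingtin, at -0.60 and the syntaxin-kinesin linker Sybu at -0.51), all on the log2 scale. Of 38 of 42 microtubule-associated proteins, 2 were higher (Macf1 at 0.72 and Mtus2 at 0.27) and 5 lower (the plus-end proteins Mapre3 at -0.65 and Mapre2 at -0.48, Clip3 at -0.39, Dclk2 at -0.38 and tau, Mapt, at -0.34). Of 23 of 33 tubulin folding, modifying and severing enzymes, 1 was higher (Svbp, the partner of tubulin carboxypeptidases, at 0.56) and 4 lower (among them the acetyltransferase Atat1 at -0.40 and the glutamylases Ttll1 at -0.40 and Ttll7 at -0.39). Of 12 of 14 γ-tubulin ring and actin-related dynactin genes, 1 was higher (Mzt1 at 0.61) and 2 lower (Actr1a, the filament of dynactin, at -0.49 and Capzb at -0.19). In no list was the share of higher genes above that of all genes. The share of lower genes was below that of all genes among the motor adaptors and above it in the other lists. The list medians were 0.10, -0.07, 0.04 and -0.06, against 0.005 over all genes. With batches as categories and all EXT and TA mice, no gene of any list passed. In the shared batches with categories, 1 motor adaptor, 1 microtubule-associated protein and 1 γ-tubulin ring or dynactin gene were lower by FDR, against 2.84% of all genes. There 1 tubulin enzyme was higher. Without the 6 libraries and with categories, 2 motor adaptors and 1 γ-tubulin ring or dynactin gene were lower, against 1% of all genes. No listed gene was higher in that fit, and none of the genes named above passed in it. Without the 6 libraries and with batches as categories Trak2, Plekhm2 and Macf1 were at -0.10, -0.04 and -0.07. The other higher genes stayed positive (0.05 to 0.23) and the lower genes stayed negative (-0.39 to -0.06).

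CREB, an activity-regulated transcription factor of learning, binds the palindrome TGACGTCA. The 250 bases before each start listed for a gene in the RefSeq promoter table of GRCm38.p6 were searched for it. A gene was counted when any of its windows held a match, and 35 of the 47 members were in that table. The palindrome was found in 5 of these 35 (14.3%), against 3.5% of the 6394 matched genes of the table and 1.55% of all 32851 windows. For comparison CCAAT, searched on both strands, was in 42.9% of members and 41.2% of the table's genes, and GGGCGG in 60% and 67.3%. For each of these 5 genes a stretch of 100 bases within those 250 is shown, with the match in capitals. The stretches of Kif5c and Klc1 end at the start, and those of Dctn3, Kif17 and Tubb2a end before it. For Kif17 the stretch lies inside the GENCODE span of the gene (chr4:138250435-138301967), so the RefSeq start used there is an internal one. They lie at chr2:49619186-49619285 (+) for Kif5c, chr4:41723191-41723290 (-) for Dctn3, chr4:138262119-138262218 (+) for Kif17, chr12:111758768-111758867 (+) for Klc1 and chr13:34078014-34078113 (-) for Tubb2a.
Kif5c: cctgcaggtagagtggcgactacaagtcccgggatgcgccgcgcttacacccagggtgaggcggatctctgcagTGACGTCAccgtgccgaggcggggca
Dctn3: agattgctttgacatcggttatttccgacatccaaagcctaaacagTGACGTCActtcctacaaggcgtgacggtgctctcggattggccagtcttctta
Kif17: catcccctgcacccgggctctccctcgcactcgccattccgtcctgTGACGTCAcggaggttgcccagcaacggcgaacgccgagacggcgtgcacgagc
Klc1: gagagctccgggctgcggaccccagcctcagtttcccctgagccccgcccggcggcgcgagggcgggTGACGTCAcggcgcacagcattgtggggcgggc
Tubb2a: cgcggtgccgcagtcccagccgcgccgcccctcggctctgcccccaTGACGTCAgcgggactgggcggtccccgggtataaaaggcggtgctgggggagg
The last base of the match lay 19 bases before the start in Kif5c, 26 in Klc1, 52 in Tubb2a, 74 in Dctn3 and 79 in Kif17. EXT minus TA differences of these genes with the batch number were 0.76, 0.00, -0.90, -0.11 and 0.08, so they did not share a direction in that fit. Without the 6 libraries and with batches as categories, as given above, Kif5c lost most of its difference, Dctn3 turned positive and Tubb2a stayed negative. A match of letters is a description of these stretches and not a measured binding site.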

How the data were processed

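The deposited table holds 1 log2 cpm value per gene and mouse. Per the labels and the study's methods the authors trimmed reads (Trimmomatic 0.36), aligned them to GRCm38 (STAR), removed low genes and outlier samples, and applied voom; how reads that map to several genes were counted is not given in the sources used here. From the log2 values, whole reads were recovered for 360932 of 360932 (tolerance 0.001 reads). Differences came from limma 3.58.1 in R 4.3.3, on the deposited log2 values of the 2 groups compared, with group, sex and batch number. All 8203 genes were fitted, with Benjamini-Hochberg adjustment (threshold 0.05). The batch number is numeric in that fit; batches as categories are an alternative. Levels per kilobase used the principal protein-coding transcript of GENCODE release 21. p-values rest on the spread between animals, and the depth of each library limits low genes most. Members, lists and tests were chosen with earlier results of these data known. Full values are given for the 3 lowest-p members per direction in EXT vs. TA, the lowest-p and the most abundant member (per kilobase) of each role, the lowest-p member per direction of the other comparisons, and members FDR-significant under both batch codings (0); others are named where a family is described. Alternatives changed 1 choice at a time, or 2 together where named.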

Additional observations from a re-analysis of the deposited data

How the results depend on the processing

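In EXT vs. TA, 23 of the 47 members passed limma's FDR threshold with the batch number. The count was 0 with batches as categories, 0 without batches 3 and 4 and 0 with log2 library size as a covariate. It was also 0 with batches as categories and library size together, and 0 without the 6 libraries high in mitochondrial transcripts. It was 8 without batches 3 and 4 and with batches as categories, and 1 without the 6 libraries and with batches as categories. It stayed between 23 and 24 with no batch term, all 3 groups fitted together, quantile normalization, voom weights, a trended robust fit and a mean log2 value of at least 5. Several log2 differences changed sign. With batches as categories and library size, Kif5b was at -0.0315, Kifc2 at -0.0355 and Tubg2 at -0.0167, and without the 6 libraries and with batches as categories Kif5a was at -0.0478. Kif1a was at -0.0832 with batches as categories, -0.0018 with no batch term, -0.10 without batches 3 and 4, -0.0283 with library size, -0.0238 after quantile normalization, -0.15 with categories and library size, -0.0819 without batches 3 and 4 with categories, and -0.0306 and -0.13 without the 6 libraries with the batch number and with categories. Dctn3 was at 0.12 with categories, 0.14 without batches 3 and 4, 0.10 with categories and library size, 0.12 without batches 3 and 4 with categories, and 0.11 and 0.18 without the 6 libraries with the batch number and with categories. The cause was not tested. Fits without the 6 libraries, and those joining categories with another change, were chosen after seeing the data. Of 21 shares, 11 moved when reads were not divided by transcript length. Depth was lower in EXT than in TA libraries (medians of 15412341 and 18015590 reads).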
